A study of Mus musculus with 12 samples.

Results

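Monocytes of blood and spleen were compared between mice that had lost 70% of their liver mass and intact mice, and the genes that moved the same way in both tissues are described here. All 12 libraries of the series entered. The 6 libraries titled PH70% 24 h, 3 from blood and 3 from spleen, were set against the 6 titled intact, 3 from each tissue, with the tissue as a covariate. The groups after resection are called PH blood and PH spleen below. Every library held RNA of CD115+ cells, pooled from 5 C57BL/6 male mice and sorted with magnetic beads from the mononuclear fraction of a density gradient. The resected mice had kept their spleen and were killed 24 h after the operation, and the intact mice had kept spleen and liver. The methods state that meloxicam was given against pain before and after surgery. The labels name no operation in the intact mice, so anaesthesia, meloxicam, opening of the abdomen and the loss of liver cannot be told apart in these groups. Whether the blood and spleen libraries came from the same mice, and the hour at which the intact mice were killed, are not stated in the labels or the methods.

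CD115, the product of Csf1r, is the receptor for macrophage colony-stimulating factor and marks monocytes and macrophages. After partial hepatectomy the remaining lobes regrow, and monocytes are known to enter the damaged organ. The spleen holds a reserve of monocytes. Myeloid cells that meet injury signals switch on NF-kB, a transcription factor held in the cytoplasm by its inhibitor IkB-alpha. Its targets include the CXC chemokines that draw neutrophils, the cytokines of the interleukin-1 family, and the gene of the inhibitor itself.

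The libraries held 36990033 to 46401368 estimated counts. Levels are given as CPM, counts scaled to the size of the library with TMM factors, and a log2 fold change is resected over intact, averaged over the tissues unless a tissue is named. A value followed by its standard error (SE) and adjusted p is such a log2 fold change. Csf1r, the sorted receptor, was read at 467, 363 and 209 CPM in intact blood, 601, 678 and 719 CPM in PH blood, 374, 459 and 525 CPM in intact spleen and 915, 1192 and 587 CPM in PH spleen. The libraries of the states did not overlap in either tissue, yet the log2 fold change of 0.97 (SE 0.22, adjusted p = 0.0116) stayed just below the limit of 1. Haemoglobin genes took 13.2% to 34.2% of the counts in blood and 0.0814% to 3.47% in spleen. On the first principal component (31.9% of the variance) the tissues separated, and on the second (16.8%) the states did. On these components intact blood library 3 and resected spleen library 3 stood apart from the other libraries of their groups, with T-cell markers of 4300 CPM in the first against 1850 and 1920 CPM, and neutrophil markers of 16100 CPM in the second against 5840 and 6250 CPM. Counts of genes are therefore also given without these 2 libraries. Resected blood library 3 lay near the others of its group on the components, yet its neutrophil markers were at 21800 CPM against 4360 and 5490 CPM.

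After resection a broad set of genes moved in the same direction in both tissues, though over all features the tissues agreed only in part. The log2 fold changes of blood and spleen correlated by 0.27 (Pearson) and 0.39 (Spearman) over all features, and 65.9% of features shared a sign. Of 20135 features tested, 2025 (10.1%) were called, at an adjusted p under 0.05 (edgeR's quasi-likelihood test, Benjamini-Hochberg over all features) and an absolute log2 fold change above 1. Of these, 1245 (6.18%) were higher and 780 (3.87%) lower after resection. A gene is said here to have risen or fallen in both tissues where it was called on average and its 3 resected libraries did not overlap its 3 intact libraries in blood, nor in spleen, in the same direction. That held for 1378 features (6.84%), 853 higher (4.24%) and 525 lower (2.61%), of which 778 and 462 carried a gene symbol. List counts below are to be read beside these shares, 6.18% and 3.87% called and 4.24% and 2.61% in both tissues. By the absence of overlap alone, 7729 features (38.4%) were separated in blood and 7063 (35.1%) in spleen, 1515 features (7.52%) were higher in both tissues without overlap, 1608 (7.99%) were lower, and 287 (1.43%) were separated in opposite directions. Without the 2 libraries that stand apart, 852 features rose and 738 fell in both tissues, where fewer libraries also make a gap between the states easier to reach. Without resected blood library 3 the counts were 762 and 431.

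**Figure D1:**
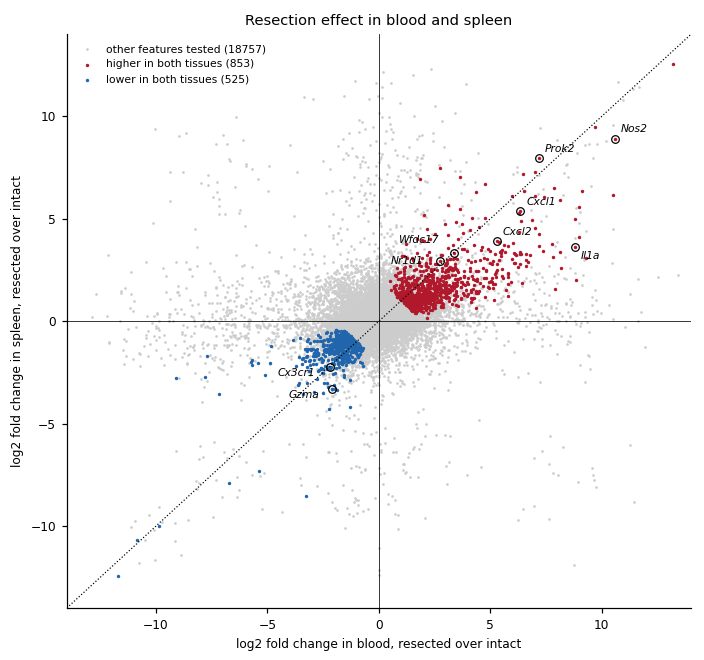
Log2 fold change in blood (x axis) against that in spleen (y axis) for each feature tested, with the 853 features that rose in both tissues in red, the 525 that fell in blue and all others in grey. The dotted line marks equal effects, and most red points lie below it, towards blood: the effect was larger in blood in 655 of the 853.

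The median over the 853 features that rose was a log2 fold change of 2.20 in blood and of 1.49 in spleen, and over the 525 that fell it was -1.66 and -1.25. The fall was larger in blood in 380 of the 525. These medians describe features chosen for their direction in the same libraries. The other 647 called features overlapped in at least 1 tissue. The log2 fold change lay beyond 1 in each tissue in 639 of the 853 and in 341 of the 525. With the 4 groups fitted separately, 167 of 20135 features were called in each tissue in the same direction. A stricter test, which takes for each feature the larger p of the tissues, passed 13 features at an adjusted p under 0.05 (0.0646%). Among them were Cxcl1, Cxcl2, Slpi, Wfdc17 and Id2, which were higher, and Zfp738, Tspyl3 and Pip4k2b, which were lower. The other 5 were transcript accessions without a symbol. Of the 13, 6 were higher (0.0298%) and 5 lower (0.0248%) by a log2 fold change beyond 1 in both tissues. At an adjusted p under 0.06 the test passed 48 features (0.238%). The average effect had an unadjusted p under 0.05 in 6904 features (34.3%).

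Chemokines that attract neutrophils rose, Cxcl1 with the smallest p of all features, and the promoters of 3 of them and of Nfkbia, the gene of IkB-alpha, are shown because each holds a match to the kB motif that NF-kB binds. The sequences are from RefSeq (GRCm38.p6) and end at the base before the transcription start. They run 5′ to 3′ along the gene's own strand, and the capitals mark the kB match.
Cxcl1 (chr5:90891105-90891244, plus strand): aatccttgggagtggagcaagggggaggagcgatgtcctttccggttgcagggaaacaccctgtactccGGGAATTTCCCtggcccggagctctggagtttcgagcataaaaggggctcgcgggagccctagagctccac
Cxcl2 (chr5:90903759-90903898, plus strand): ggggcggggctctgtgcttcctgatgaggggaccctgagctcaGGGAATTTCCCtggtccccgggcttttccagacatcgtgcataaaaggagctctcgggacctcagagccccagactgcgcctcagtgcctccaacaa
Cxcl3 (chr5:90785961-90786100, plus strand): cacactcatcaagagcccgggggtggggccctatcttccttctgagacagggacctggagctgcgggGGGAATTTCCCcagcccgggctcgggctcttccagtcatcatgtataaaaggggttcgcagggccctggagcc
Nfkbia (chr12:55492648-55492787, minus strand): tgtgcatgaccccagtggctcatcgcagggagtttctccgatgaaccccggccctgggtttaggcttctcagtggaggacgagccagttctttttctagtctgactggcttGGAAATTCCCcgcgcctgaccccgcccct

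The match lay 71 to 61 bases before the start of Cxcl1, 97 to 87 before Cxcl2, 73 to 63 before Cxcl3 and 29 to 20 before Nfkbia, and the 3 chemokine genes carried the same 11 letters. Over 250 bases before the start, a kB match on either strand stood in 9.70% of 763 promoters of genes that rose in both tissues, in 8.53% of 457 promoters of genes that fell, and in 8.68% of 15663 promoters of all features tested. The AP-1 site TGACTCA, or TGAGTCA on the other strand, stood in 6.95%, 2.84% and 3.45% of the same promoters. The interferon-stimulated response element, searched on both strands as a pair of GAAA cores with 2 bases between them, stood in 3.28%, 4.16% and 2.81%. These shares were not tested, and a match is a run of letters and not a site shown to be bound.

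Of the 6 CXC chemokines listed, 5 were tested, and Cxcl1, Cxcl2, Cxcl3 and Cxcl5 rose in both tissues. They are ligands of CXCR2, the receptor that guides neutrophils. Cxcl1 was read at 18.6, 18.0 and 9.59 CPM in intact blood, 880.0, 2004 and 848 CPM in PH blood, 0.358, 0.668 and 0.553 CPM in intact spleen and 27.3, 11.5 and 26.5 CPM in PH spleen. The states lay far apart in each tissue, and the resected spleen reached about the level of intact blood. Its log2 fold change was 5.90 (SE 0.41, adjusted p = 0.000365), with 6.34 in blood and 5.36 in spleen, and the difference between the tissues was 0.98 (SE 0.66, adjusted p = 0.469). Cxcl2 stood at 78.9, 86.1 and 37.7 CPM in intact blood, 1838, 4272 and 1846 CPM in PH blood, 22.9, 27.3 and 29.0 CPM in intact spleen and 240.1, 286 and 652 CPM in PH spleen. It too was separated in both tissues, with a log2 fold change of 4.59 (SE 0.45, adjusted p = 0.000774). Cxcl3 was below 0.3 CPM in every intact library and at 110.3, 331 and 330.3 CPM in PH blood. In spleen after resection it was at 2.71, 2.95 and 35.6 CPM, the highest value in library 3, which stands apart, and its log2 fold change was 8.49 (SE 1.17, adjusted p = 0.002). Cxcl5 had 3 counts or fewer in every intact library of both tissues. Against that floor per library its PH level was at least 93.2-fold higher in blood (53.4-fold without resected library 3) and at least 1.46-fold higher in spleen. Ppbp, a chemokine stored in platelets, had a log2 fold change of 0.62 and did not pass. Reads of Cxcl1, Cxcl2 and Cxcl3 can be shared between these close copies, and the counting rule for shared reads is not given in the sources used here.

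**Figure D2:**
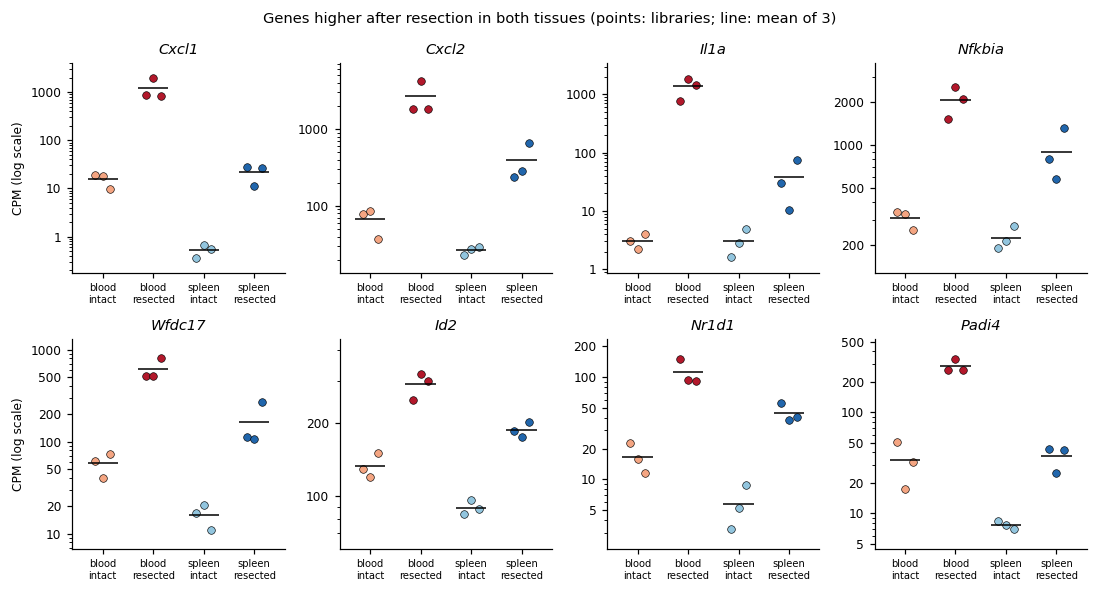
CPM of 8 genes that rose in both tissues, on a log scale, for the 3 libraries of each of the 4 groups (points) with the mean of the group (line). In each panel every resected library lies above every intact library of the same tissue, and Cxcl1 in resected spleen (11.5 to 27.3 CPM) lies near intact blood (9.59 to 18.6 CPM).

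Among cytokines, Il1a, an alarm cytokine that acts through the interleukin-1 receptor, rose most. It was read at 3.00, 2.21 and 3.98 CPM in intact blood, 777, 1860 and 1454 CPM in PH blood, 1.62, 2.86 and 4.85 CPM in intact spleen and 29.7, 10.5 and 74.3 CPM in PH spleen. The intact tissues were at a similar low level, and every PH blood library lay above every PH spleen library. The log2 fold change was 6.20 (SE 1.20, adjusted p = 0.00652), with 8.80 in blood and 3.61 in spleen, and the difference between the tissues did not pass (5.18, SE 0.96, adjusted p = 0.0639). Tnf, the cytokine that drives NF-kB in many cells, stood at 11.4, 15 and 9.26 CPM in intact blood, 621, 1198 and 728 CPM in PH blood, 9.83, 12.2 and 18.5 CPM in intact spleen and 80.6, 39.7 and 266 CPM in PH spleen. Its log2 fold change was 4.70 (SE 0.72, adjusted p = 0.00266). Il10, which restrains myeloid activation, rose with it (3.96, SE 0.84, adjusted p = 0.00938), and so did Il23a (4.91, SE 0.89, adjusted p = 0.00512), a subunit of interleukin-23 that was at the counting floor in intact spleen and at least 7.82-fold higher there after resection (2.66-fold without library 3). The fourth of the 15 cytokines tested to rise was Csf3, the growth factor of neutrophils, at 5.78 (adjusted p = 0.0158), which was 5.65 with an adjusted p of 0.0637 without resected spleen library 3. Without both libraries that stand apart, 3 of the 15 rose. In the interleukin-1 family 4 of 12 members rose in both tissues. Beside Il1a these were Il18bp, which neutralises interleukin-18, Il36g and the decoy receptor Il1r2. The call of Il36g (2.96, adjusted p = 0.0493) was lost without any 1 of 10 libraries, at adjusted p-values of 0.0551 to 0.124. Il1r2 (4.43, adjusted p = 0.0211) missed the threshold without resected spleen library 3 (adjusted p = 0.0888) and without intact blood library 1 (0.0593) or 2 (0.0627). Without both apart libraries 2 of the 12 were called higher and 1 lower.

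Of 16 genes of NF-kB signalling 5 rose on average and 4 of them in both tissues, among them 3 genes of the IkB family. Nfkbia was read at 339.9, 329.8 and 253 CPM in intact blood, 1516, 2532 and 2115 CPM in PH blood, 189, 213 and 269.8 CPM in intact spleen and 795, 576 and 1322 CPM in PH spleen. The states were separated in both tissues, and the log2 fold change was 2.37 (SE 0.25, adjusted p = 0.000889). Nfkbiz, which encodes IkB-zeta, had 2.31 (SE 0.42, adjusted p = 0.00514). Nfkbib, which like Nfkbia encodes an inhibitor of NF-kB, had 1.36 (SE 0.28, adjusted p = 0.00796). Rela, the gene of the subunit p65, had 0.56 (SE 0.14, adjusted p = 0.0188), below the fold limit. Of 23 immediate-early genes, which respond within minutes to signals, 3 rose on average and 2 in both tissues, against 6.18% and 4.24% of all features. Those 2 were Fosl1, a partner in AP-1, and Ier3, which counters cell death. Fosl1 was at 0.175 to 0.468 CPM in intact blood, 4.24 to 15.8 CPM in PH blood, 0.0417 to 0.447 CPM in intact spleen and 2.34 to 13.6 CPM in PH spleen. Every resected library exceeded every intact one of its tissue, and its log2 fold change was 4.89 (SE 0.67, adjusted p = 0.002). Ier3 had 3.17 (SE 0.52, adjusted p = 0.00351). Egr1 did not pass (1.33, SE 0.51, adjusted p = 0.0901), with 2.62 in blood and 0.05 in spleen, though it did by DESeq2 (adjusted p = 0.0161).

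In the EGF family of growth factors, Ereg and Hbegf rose in both tissues. Ereg, which encodes epiregulin, had 3 counts or fewer in every intact library and was at 13.2, 22.3 and 32.8 CPM in PH blood and at 0.490, 0.0437 and 20.8 CPM in PH spleen. The spleen values were spread widely, with library 2 at a level of 3 counts or fewer. Against that floor Ereg was at least 275-fold higher in blood and at least 111-fold in spleen, the latter resting on library 3, without which the bound was 4.17-fold (log2 fold change 9.60, adjusted p = 0.00299, and 8.70 with 0.00386 without that library). With limma's voom fit and the replicate number within each state as a random effect the adjusted p was 0.0587. Hbegf, a growth factor that binds heparin and is shed from the cell surface, was at 1.76, 1.26 and 0.961 CPM in intact blood, 17.2, 41.5 and 27.7 CPM in PH blood, 0.884, 1.88 and 1.60 CPM in intact spleen and 10.1, 6.18 and 7.69 CPM in PH spleen. Its states were separated in both tissues, with a log2 fold change of 3.45 (SE 0.45, adjusted p = 0.00162). They were 2 of 11 growth factors tested, against 4.24% of all features. Without the apart libraries 3 of the 11 were called higher. Vegfa, the vascular growth factor, did not pass (1.37, SE 0.48, adjusted p = 0.0676), though it did by DESeq2 (adjusted p = 0.0157).

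The rising genes with the smallest p-values included some outside the lists. Wfdc17, a whey acidic protein family gene of activated macrophages, was read at 61.3, 40.5 and 73.7 CPM in intact blood, 510.0, 518 and 805 CPM in PH blood, 16.6, 20.4 and 11 CPM in intact spleen and 113, 106 and 270.4 CPM in PH spleen. It rose by nearly equal amounts, with 3.39 in blood and 3.35 in spleen, and its log2 fold change was 3.37 (SE 0.30, adjusted p = 0.000668). Id2, an inhibitor of basic helix-loop-helix transcription factors, stood at 129.6, 119.6 and 150.0 CPM in intact blood, 249, 320.3 and 299.6 CPM in PH blood, 83.9, 95.7 and 88.5 CPM in intact spleen and 186, 175 and 202 CPM in PH spleen. The change was small but even over the libraries (1.10, SE 0.10, adjusted p = 0.000678). Padi4, the enzyme that turns arginine of histones into citrulline, was at 17.3 to 51.1 CPM in intact blood, 262 to 335 CPM in PH blood, 7.04 to 8.31 CPM in intact spleen and 24.8 to 43.6 CPM in PH spleen. Its log2 fold change was 2.68 (SE 0.28, adjusted p = 0.000889). Ifrd1 (2.14, SE 0.21, adjusted p = 0.000774) and Nxpe5 (2.62, SE 0.28, adjusted p = 0.000889) were separated in both tissues too. Prok2, a chemokine-like peptide made by neutrophils and other myeloid cells, was at 0.0257 to 1.42 CPM in intact blood, 23.0 to 163 CPM in PH blood, 0.0638 to 0.209 CPM in intact spleen and 9.58 to 49.7 CPM in PH spleen. Its log2 fold change was 7.51 (SE 0.96, adjusted p = 0.00155).

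Most listed genes of the acute phase and of protease inhibitors rose, with 12 of 14 higher on average and 9 in both tissues, against 6.18% and 4.24% of all features. Their median log2 fold change was 3.49. Slpi, which encodes an inhibitor of neutrophil elastase, was read at 105, 54.0 and 73.6 CPM in intact blood, 2410, 2923 and 2759 CPM in PH blood, 94.4, 106 and 124 CPM in intact spleen and 347, 399 and 395 CPM in PH spleen. It was separated in both tissues (3.47, SE 0.62, adjusted p = 0.00464), and the rise was larger in blood by 3.30 (SE 0.33, adjusted p = 0.0136) on the log2 scale. Lcn2, a protein that binds bacterial siderophores, had 5.39 (SE 1.04, adjusted p = 0.00653), and Saa3, a serum amyloid A made by macrophages, 6.06 (SE 1.27, adjusted p = 0.00909). Stfa2 and Stfa3, stefin inhibitors of cathepsins, stood at or below 0.793 CPM in every intact library. Stfa2 was at 10.4, 12.7 and 115 CPM in PH blood and 13.7, 10.4 and 76.4 CPM in PH spleen (6.90, SE 0.97, adjusted p = 0.00203). Stfa3 was at least 191-fold higher in blood than the counting floor of the intact libraries, or 47.4-fold without resected blood library 3, and the stefin genes are near-identical copies between which reads can be split. Without the 2 apart libraries 8 of the 14 passed on average. Slpi and Lcn2 were named after their values were seen, as was Saa3.

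Markers of neutrophils rose beside these genes. Of 13 listed, 11 rose on average and 10 in both tissues, their median log2 fold change was 3.21, and 9 did so on average without the apart libraries. Their summed level was 164 to 612 CPM in intact blood, 4360 to 21800 CPM in PH blood, 1410 to 2490 CPM in intact spleen and 5840 to 16100 CPM in PH spleen. Ly6g, a surface protein that defines mouse neutrophils, was read at 1.76, 1.26 and 0.655 CPM in intact blood, 17.0, 23.0 and 37.3 CPM in PH blood, 9.76, 5.07 and 4.77 CPM in intact spleen and 27.9, 28.0 and 26.4 CPM in PH spleen. It was above 0 in all 12 libraries and separated in both tissues (3.21, SE 0.50, adjusted p = 0.00287). S100a8, a chain of calprotectin, had 4.50 (SE 0.83, adjusted p = 0.00521), and Ltf, the granule protein lactoferrin, 2.45 (SE 0.28, adjusted p = 0.00112). Cxcr2 (1.65, SE 0.78, adjusted p = 0.158) and Csf3r (1.21, SE 0.56, adjusted p = 0.154), receptors that mature neutrophils carry, did not pass by edgeR. By DESeq2 Cxcr2 passed (adjusted p = 0.039) and Csf3r did not (adjusted p = 0.0566). Most neutrophils are denser than the mononuclear fraction that was loaded on the magnets, and how many remained in it was not tested. In pooled cells, more cells of a type and more RNA per cell cannot be told apart, and the part that neutrophil RNA had in the rise of the acute-phase, matrix and chemokine genes was not tested.

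**Figure D3:**
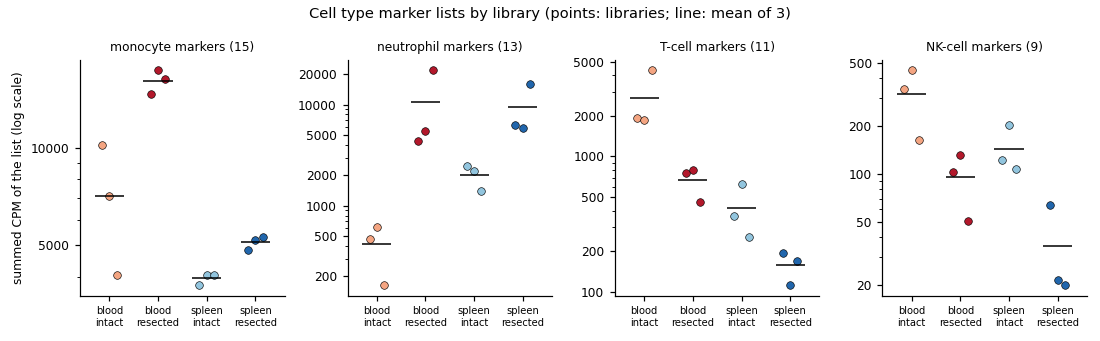
Summed CPM of 4 cell type marker lists (members tested in brackets) on a log scale, for the 3 libraries of each group (points) with the mean (line). Neutrophil markers were higher and T-cell markers lower in every resected library than in every intact library of the same tissue, and intact blood library 3 held the lowest monocyte and neutrophil sums and the highest T-cell sum of intact blood.

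Complement genes rose in both tissues in 9 of 20 cases, with 11 called on average (9 without the apart libraries) at a median log2 change of 1.64. Of the first component C1, C1qa, C1qb, C1qc, C1ra, C1s1 and C1s2 rose in both tissues, and C1rb was not called. C1qb, a chain of the recognition subunit C1q, was at 80.7, 39.9 and 111 CPM in intact blood, 276, 320.0 and 185 CPM in PH blood, 117, 167 and 161 CPM in intact spleen and 487, 711 and 320.4 CPM in PH spleen. The states were separated, and the effect was about equal, with 1.76 in blood and 1.77 in spleen (1.76, SE 0.27, adjusted p = 0.00281). C1s1 and C1s2, serine proteases of C1 and close copies of each other, had 2.92 (SE 0.47, adjusted p = 0.00306) and 3.03 (SE 0.52, adjusted p = 0.0039), from levels under 1 CPM in all intact libraries. Cfp, which encodes properdin of the alternative pathway, was at 147 to 344 CPM in intact blood, 883 to 1058 CPM in PH blood, 137 to 172 CPM in intact spleen and 325 to 409.6 CPM in PH spleen. It was again separated in both tissues (1.59, SE 0.22, adjusted p = 0.00201).

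Coagulation and fibrinolysis genes rose in both tissues in 7 of 15 cases, with 9 called on average and 8 without the apart libraries. F3, the tissue factor that starts clotting, was read at 1.10, 0.848 and 0.153 CPM in intact blood, 26.6, 111 and 66.0 CPM in PH blood, 0.189, 0.230 and 0.0638 CPM in intact spleen and 0.724, 0.349 and 2.14 CPM in PH spleen. Its PH blood values were far above all others and its spleen values stayed at or below 2.14 CPM (4.96, SE 1.00, adjusted p = 0.00752). Plau, the urokinase that activates plasminogen, was at 3.39 to 13.8 CPM in intact blood, 62.2 to 99.7 CPM in PH blood, 1.96 to 7.83 CPM in intact spleen and 16.2 to 38.7 CPM in PH spleen (3.02, SE 0.46, adjusted p = 0.00268). Serpinb2, an inhibitor of urokinase, was at 12.2 to 32.0 CPM in intact blood and 288 to 630.4 CPM after resection, but below 1 CPM in every spleen library. Its log2 fold change was 3.27 (SE 0.57, adjusted p = 0.0044), with 4.34 in blood and 1.48 in spleen.

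Of 16 metalloproteinase and matrix genes 10 rose on average and 6 in both tissues (median log2 fold change 2.71), and 4 rose on average without the apart libraries. Mmp9, a gelatinase also stored in neutrophil granules, was at 20.3 to 86.0 CPM in intact blood, 499 to 1830 CPM in PH blood, 61.0 to 75.9 CPM in intact spleen and 237 to 958 CPM in PH spleen (3.51, SE 0.52, adjusted p = 0.00248). Mmp25, a membrane-bound protease of leukocytes, had 3.89 (SE 0.65, adjusted p = 0.00374). Mmp14 (4.76, adjusted p = 0.0124) missed the threshold without resected spleen library 3, at 4.36 with an adjusted p of 0.0691.

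Lysosomal genes moved less but in large numbers. Of 30 tested, 13 rose, all 13 in both tissues, and 0 fell, with 12 rising on average without the apart libraries. The list median was 1.53 in blood and 0.36 in spleen, and 4 of the 30 were called for a difference between the tissues. Ctsd, the aspartic protease cathepsin D, was at 506, 413 and 564 CPM in intact blood, 2935, 3482 and 3390 CPM in PH blood, 332, 352 and 308 CPM in intact spleen and 644, 762 and 1076 CPM in PH spleen. The states were separated in both tissues (2.02, SE 0.27, adjusted p = 0.00171). Ctsb, cathepsin B, had 1.59 (SE 0.22, adjusted p = 0.002), Gla, the lysosomal galactosidase, 1.97 (SE 0.26, adjusted p = 0.00164), and Grn, progranulin, 1.47 (SE 0.21, adjusted p = 0.00211). Gla had nearly the same estimate in each, 1.98 in blood and 1.96 in spleen.

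Receptors that take up cell debris and haemoglobin rose as well, in 7 of 18 cases on average and 5 in both tissues (6 on average without the apart libraries). One, Tyro3, a receptor for dead cells, fell (-1.71, SE 0.51, adjusted p = 0.039). Its call was lost without intact spleen library 1 or 2, resected spleen library 1 or 2, intact blood library 2 or any 1 resected blood library. The adjusted p-values were then 0.0529 to 0.0866. Tyro3 was named after its values were seen. Cd163, the receptor for haemoglobin bound to haptoglobin, was read at 21.2, 18.0 and 17.9 CPM in intact blood, 231, 220.4 and 274 CPM in PH blood, 23.2, 75.9 and 60.8 CPM in intact spleen and 236, 269 and 105 CPM in PH spleen. It was low in all intact blood libraries, and the states were separated in both tissues (2.80, SE 0.42, adjusted p = 0.00253). Hmox1, the haem oxygenase that opens haem, was at 52.8, 42.3 and 35.5 CPM in intact blood, 565, 726 and 801 CPM in PH blood, 188, 320.2 and 425 CPM in intact spleen and 753, 1096 and 1389 CPM in PH spleen. Its log2 fold change was 2.90 (SE 0.44, adjusted p = 0.00267). Hmox1 belongs to the antioxidant list, of which 10 of 19 rose, all 10 in both tissues, and 11 on average without the apart libraries. Gsr, glutathione reductase, had 1.98 (SE 0.35, adjusted p = 0.0044), G6pdx, which supplies its NADPH, 1.40 (SE 0.20, adjusted p = 0.00227), and Ftl1, the light chain of ferritin, 1.32 (SE 0.22, adjusted p = 0.00381). Haemoglobin transcripts differed between the states beside these genes, with 10 of 10 haemoglobin and erythroid genes positive, 1 called, and a summed level of 720 to 3400 CPM in intact spleen and 7560 to 32900 CPM in PH spleen. In blood these sums overlapped, at 124000 to 405000 CPM and 218000 to 530000 CPM. The part of red cell RNA in the change of Cd163 and Hmox1 was not tested.

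Glycolysis and lipid mediator genes rose, while none of the listed genes of respiration, the proteasome and the ribosome was called. Of 25 glycolysis and hypoxia genes 14 rose on average, 11 in both tissues, with a median of 1.08, and 7 rose on average without the apart libraries. Slc16a3, which exports lactate, had 2.61 (SE 0.49, adjusted p = 0.00557) and Hk3, a hexokinase of myeloid cells, 1.92 (SE 0.32, adjusted p = 0.00375). Eno1, enolase, was at 256 to 263 CPM in intact blood, 604 to 769 CPM in PH blood, 181 to 195 CPM in intact spleen and 223 to 438 CPM in PH spleen (1.04, SE 0.20, adjusted p = 0.00667). Of 18 eicosanoid genes 9 rose on average and 6 in both tissues, and 7 rose on average without the apart libraries. Ptgs1, the constitutive cyclooxygenase, was at 42.4, 28.4 and 18.2 CPM in intact blood, 168, 182 and 148 CPM in PH blood, 17.6, 26.8 and 42.6 CPM in intact spleen and 119, 136 and 59.5 CPM in PH spleen. It was separated in both tissues (2.17, SE 0.30, adjusted p = 0.00201). Alox5 (2.01, SE 0.33, adjusted p = 0.00343) and its partner Alox5ap (2.28, SE 0.42, adjusted p = 0.00535), which start leukotriene synthesis, and Pla2g4a (1.77, SE 0.31, adjusted p = 0.0046), the phospholipase that frees arachidonic acid, rose too. Among arginine metabolism genes, Nos2, the inducible nitric oxide synthase, stood at or below 0.105 CPM in every intact library, at 5.4, 11.4 and 111 CPM in PH blood and at 10, 3.97 and 103 CPM in PH spleen. It was at least 516-fold higher in blood than the counting floor (adjusted p = 0.002), a bound carried by resected library 3 and 102-fold without it. Without that library the average effect was 8.71 (adjusted p = 0.00254). With all libraries, limma's voom fit with the replicate number within each state as a random effect gave an adjusted p of 0.0955. Arg1, the arginase that competes with it for arginine, had 5.43 (SE 1.11, adjusted p = 0.00799), and Chil3, a chitinase-like protein of myeloid cells, 4.53 (SE 0.78, adjusted p = 0.00408).

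By edgeR, 0 of 30 oxidative phosphorylation genes, 0 of 37 proteasome genes and 0 of 49 ribosomal protein genes were called, with medians of 0.37, 0.35 and 0.10 on the log2 scale, and DESeq2 called 0 in each list too. An unadjusted p under 0.05 was reached by 16, 21 and 3 of them. Single members did pass the adjusted p below the fold limit, such as Cox8a (0.64, SE 0.09, adjusted p = 0.00173), a subunit of cytochrome oxidase, and Psmb4 (0.59, SE 0.10, adjusted p = 0.00436), a subunit of the proteasome core. Psmb8, the subunit that interferon exchanges into the proteasome, had -0.54 (SE 0.12, adjusted p = 0.0112). Of 26 cell cycle genes 1 was called, Cdkn1a, the inhibitor p21 (1.58, SE 0.36, adjusted p = 0.0128), and 8 were called higher without the apart libraries. The list median was -1.03 in blood and 1.34 in spleen, and the sign in blood rested on intact blood library 3, without which it was 0.57. The summed level of the list was 3990 CPM in that library, 1060 and 1150 CPM in the others of intact blood and 1340 to 1480 CPM in PH blood.

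**Figure D4:**
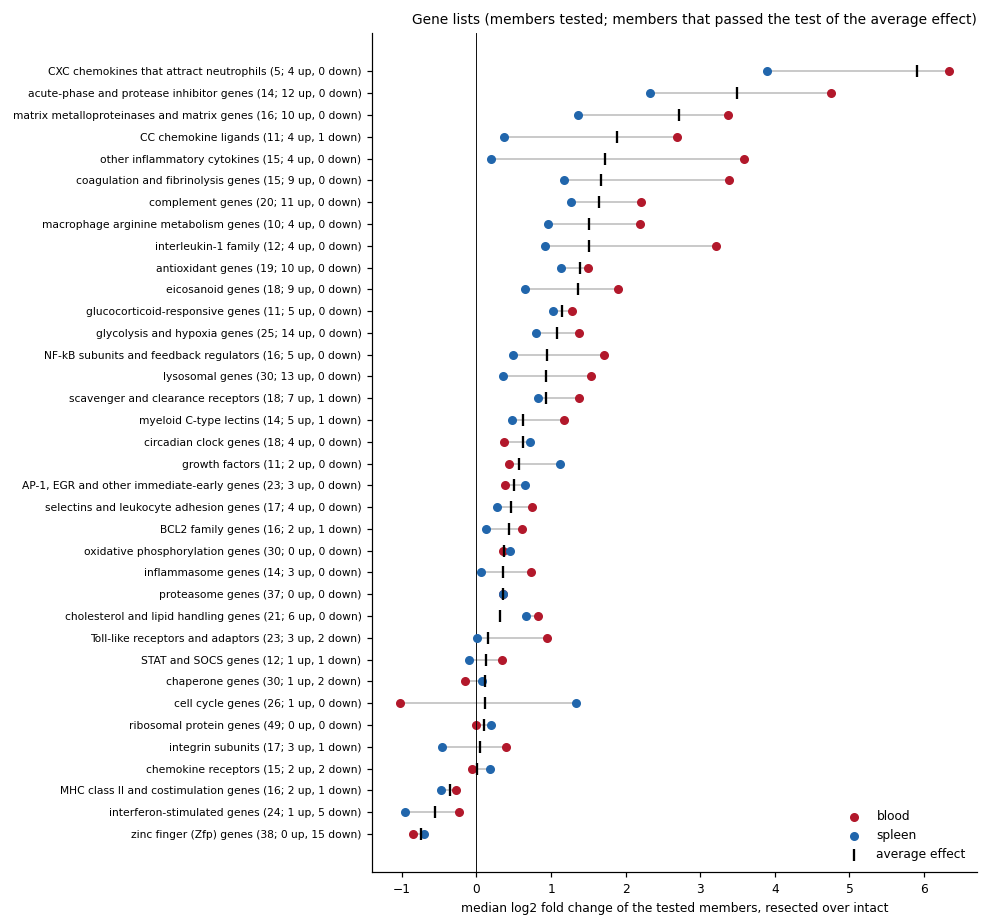
Median log2 fold change of the tested members of 36 gene lists in blood (red), in spleen (blue) and for the average effect (black bar), with the number tested and the number called higher (up) and lower (down). The CXC chemokines have the highest average median (5.90) and the zinc finger genes the lowest (-0.74), the gap between the tissues is widest for other inflammatory cytokines (3.59 in blood, 0.20 in spleen), and the blood value of the cell cycle genes (-1.03) turns positive (0.57) without intact blood library 3.

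Genes that answer to glucocorticoids rose in both tissues in 5 of 11 cases, against 4.24% of all features. Without the apart libraries 4 of 11 were called higher on average. Fkbp5, Tsc22d3, Per1, Zbtb16, Ddit4 and Nr3c1 were the 6 not called, and 3 of the 11 had a negative estimate. Mt1 and Mt2, the metallothioneins, which zinc also induces, had 3.35 (SE 0.43, adjusted p = 0.00155) and 4.39 (SE 0.61, adjusted p = 0.002). Mt1 was at 22.7, 10.8 and 17.0 CPM in intact blood, 184, 224 and 454 CPM in PH blood, 22.2, 17.8 and 14.3 CPM in intact spleen and 59.5, 88.2 and 185 CPM in PH spleen. No library of one state reached the other in either tissue. Sgk1, a kinase that regulates ion channels, had 1.88 (SE 0.34, adjusted p = 0.00497), and Klf9, a transcription factor, 1.27 (SE 0.32, adjusted p = 0.0189). Klf9 missed the threshold without intact blood library 2 (1.25, adjusted p = 0.0513). The fifth was Cd163, described above.

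Of 18 circadian clock genes tested 4 rose in both tissues, and 3 were called higher on average without the apart libraries. Nr1d1, which encodes the repressor REV-ERB-alpha of the clock loop, was read at 22.8, 15.8 and 11.6 CPM in intact blood, 148, 92.5 and 91.0 CPM in PH blood, 3.32, 5.22 and 8.92 CPM in intact spleen and 56.0, 37.7 and 40.7 CPM in PH spleen. It rose about equally (2.73 in blood and 2.94 in spleen), with a log2 fold change of 2.83 (SE 0.27, adjusted p = 0.000774). Nr1d2, its close relative, had 1.41 (SE 0.21, adjusted p = 0.00226) and Bhlhe40, another clock repressor, 2.06 (SE 0.36, adjusted p = 0.00418). Per2 had 1.57 (SE 0.45, adjusted p = 0.0315), and missed the threshold without intact spleen library 1, resected spleen library 3 or any 1 of the 3 intact blood libraries, at adjusted p-values of 0.0502 to 0.084. Since the hour of collection is not stated for the intact mice, the hour of the day and the resection cannot be told apart for these genes.

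The genes that fell moved by smaller amounts. Tspyl3, a nucleosome assembly protein-like gene, was read at 17.3, 19.6 and 20.5 CPM in intact blood, 8.91, 8.53 and 8.28 CPM in PH blood, 24.5, 22.7 and 19.3 CPM in intact spleen and 8.48, 9.21 and 7.99 CPM in PH spleen. All resected libraries lay between 7.99 and 9.21 CPM and all intact ones at 17.3 CPM or more, with a log2 fold change of -1.27 (SE 0.11, adjusted p = 0.000666). Pip4k2b, a phosphoinositide kinase, was at 82.6, 83.7 and 85.8 CPM in intact blood, 40.9, 39.4 and 35.9 CPM in PH blood, 101, 98.1 and 93.5 CPM in intact spleen and 57.0, 51.5 and 39.2 CPM in PH spleen. Its change was as even (-1.05, SE 0.10, adjusted p = 0.000748). Shprh, a ubiquitin ligase of DNA damage tolerance, had -1.03 (SE 0.10, adjusted p = 0.000774), Fbxo46, an F-box protein, -1.48 (SE 0.16, adjusted p = 0.000889), and Klhl42, an adaptor of cullin ubiquitin ligases, -1.85 (SE 0.20, adjusted p = 0.000889). AB010352, a gene known only by its clone name, had -1.41 (SE 0.15, adjusted p = 0.000889).

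Zinc finger genes were frequent among those that fell. Of 344 tested genes with a Zfp number, 77 were called lower and 72 of them (20.9%) fell in both tissues, against 2.61% of all features. The median log2 fold change was -0.57, with -0.66 in blood and -0.51 in spleen, and 287 of the 344 were negative. Many of them carry a KRAB domain and are known to silence transposable elements. Zfp738 was read at 8.83, 9.33 and 8.63 CPM in intact blood, 3.02, 2.04 and 3.04 CPM in PH blood, 14.8, 13.7 and 11.2 CPM in intact spleen and 4.13, 4.39 and 3.96 CPM in PH spleen. The states were clearly separated in both tissues (-1.70, SE 0.16, adjusted p = 0.000678). Zfp873 had -1.92 (SE 0.20, adjusted p = 0.000889), Zfp329 -1.74 (SE 0.17, adjusted p = 0.000774) and Zfp260 -1.75 (SE 0.20, adjusted p = 0.00102). Zfp numbers name a fold and not a pathway, and the 3 that were called higher were Zfp703 (1.11, SE 0.13, adjusted p = 0.00105), Zfp9 (1.40, SE 0.34, adjusted p = 0.0164) and Zfp991 (1.04, SE 0.18, adjusted p = 0.00408), named after their values were seen. In a list of 38 such genes, itself taken from earlier results on these libraries and so not independent, 15 fell and 0 rose (13 fell on average without the apart libraries).

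Interferon-stimulated genes fell in part. Of 24 interferon-stimulated genes 5 fell on average, 4 of them in both tissues, and 1 rose. Ifi47, a GTPase of the immunity-related family, was read at 69.9, 79.3 and 42.6 CPM in intact blood, 21.0, 26.0 and 24.2 CPM in PH blood, 58.5, 67.9 and 45.5 CPM in intact spleen and 16.9, 17.7 and 22.8 CPM in PH spleen. It was separated in both tissues, with a log2 fold change of -1.51 (SE 0.17, adjusted p = 0.000963). Ifi44 (-1.66, SE 0.36, adjusted p = 0.00995), Mx1 (-1.68, SE 0.34, adjusted p = 0.00787), an antiviral GTPase, and Usp18 (-1.11, SE 0.25, adjusted p = 0.0113), which removes the ubiquitin-like ISG15, fell too. The gene that rose was Cxcl10, an interferon-inducible chemokine that NF-kB also drives (3.42, SE 0.76, adjusted p = 0.0116), chosen after its values were seen. Without the apart libraries 9 fell and 1 rose. The list median was -0.23 in blood and -0.96 in spleen.

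**Figure D5:**
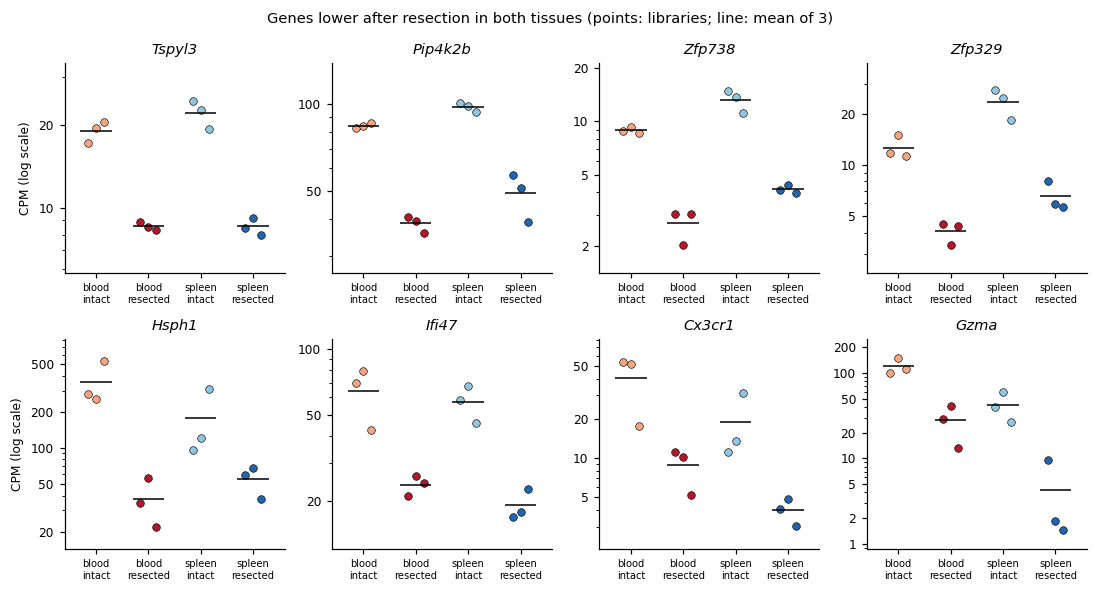
CPM of 8 genes that fell in both tissues, on a log scale, for the 3 libraries of each of the 4 groups (points) with the mean of the group (line). In each panel every resected library lies below every intact library of the same tissue, and Tspyl3 reaches one level after resection in both tissues (7.99 to 9.21 CPM).

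T-cell markers fell, and so did part of the NK-cell markers. Of 11 T-cell markers tested 10 fell on average and 8 in both tissues, with a median of -1.87 and 9 falling on average without the apart libraries. Their summed level was 1850 to 4300 CPM in intact blood, 463 to 801 CPM in PH blood, 257 to 629 CPM in intact spleen and 113 to 196 CPM in PH spleen. Cd3e, a chain of the T-cell receptor complex, was read at 74.8, 72.2 and 234 CPM in intact blood, 28.0, 24.9 and 14.2 CPM in PH blood, 14.3, 27.5 and 10.6 CPM in intact spleen and 5.51, 2.36 and 6.15 CPM in PH spleen. Intact blood library 3 held the highest value, and the states were separated with or without it (-2.21, SE 0.40, adjusted p = 0.00521). Bcl11b, a transcription factor of T cells, had -2.50 (SE 0.44, adjusted p = 0.00459). Of 9 NK-cell markers 7 fell on average and 2 in both tissues, Klrk1 (-1.73, SE 0.43, adjusted p = 0.0172), the receptor NKG2D, and Gzma, the protease granzyme A. Gzma was at 99.1, 152 and 112 CPM in intact blood, 29.3, 40.9 and 13.4 CPM in PH blood, 39.5, 59.4 and 26.9 CPM in intact spleen and 9.48, 1.86 and 1.43 CPM in PH spleen (-2.70, SE 0.52, adjusted p = 0.00636). S1pr5, which guides NK cells and patrolling monocytes out of tissues, stood at 4.26 to 21.6 CPM in intact blood, 1.01 to 4.0 CPM in PH blood, 8.15 to 14.2 CPM in intact spleen and 1.22 to 1.77 CPM in PH spleen (-2.73, SE 0.44, adjusted p = 0.00321). Of 10 B-cell markers tested 0 rose and 1 fell by edgeR, and 4, all lower, had an unadjusted p under 0.05.

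Cx3cr1 and Ace, 2 markers of nonclassical monocytes, fell in both tissues. Cx3cr1, the fractalkine receptor, which is high on patrolling monocytes, was read at 53.7, 51.9 and 17.4 CPM in intact blood, 11.2, 10.2 and 5.26 CPM in PH blood, 11.2, 13.5 and 31.3 CPM in intact spleen and 4.11, 4.83 and 3.05 CPM in PH spleen. The estimates of the tissues were nearly the same (-2.20 in blood and -2.22 in spleen), with a log2 fold change of -2.21 (SE 0.36, adjusted p = 0.00327). Ace, another gene of that subset, had -1.57 (SE 0.37, adjusted p = 0.0141). Nr4a1 (0.53, SE 0.35, adjusted p = 0.323) and Treml4 (1.00, SE 0.37, adjusted p = 0.0785), further markers of that subset, did not pass, though Treml4 had an adjusted p of 0.032 by DESeq2. Ly6c2 (-0.28, SE 0.35, adjusted p = 0.614) and Ccr2 (-0.46, SE 0.36, adjusted p = 0.389), which mark classical monocytes, did not pass, with Ccr2 at 0.16 in blood and -1.09 in spleen. Cd68 (1.54, SE 0.25, adjusted p = 0.00343) and Adgre1 (2.07, SE 0.40, adjusted p = 0.00676), the macrophage proteins CD68 and F4/80, rose in both tissues. In the list of 15 monocyte markers 4 rose and 3 fell, and 2 rose and 3 fell without the apart libraries. Cx3cr1 is expressed by NK cells as well, and the part of NK and T-cell RNA in the falls of Cx3cr1, S1pr5 and Gzma was not tested.

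Further large falls were found in BC147527 (-2.94, SE 0.44, adjusted p = 0.00253), Akap12 (-2.76, SE 0.48, adjusted p = 0.0044), a scaffold of protein kinase A, and Hsph1 (-2.46, SE 0.45, adjusted p = 0.005), a chaperone of the HSP110 family. Hsph1 was at 281, 255 and 530.4 CPM in intact blood, 34.9, 55.7 and 21.9 CPM in PH blood, 96.3, 121 and 313 CPM in intact spleen and 59.4, 68.2 and 37.4 CPM in PH spleen. Intact library 3 was the highest in both tissues, and the resected libraries lay below all intact ones. Of 30 chaperone genes 2 fell and 1, Sdf2l1 of the endoplasmic reticulum, rose (1.18, SE 0.20, adjusted p = 0.00398). Lig4, a DNA ligase of end joining, had an estimate of -3.00 (adjusted p = 0.0492). It was at 5.31, 5.19 and 85.8 CPM in intact blood and 1.13, 0.849 and 1.38 CPM after resection, so that intact library 3 alone held a value far above the rest. In spleen it was at 9.95, 9.79 and 7.26 CPM intact and 3.78, 3.82 and 4.01 CPM after resection. The call was lost without any 1 of the other 11 libraries, at adjusted p-values of 0.05 to 0.116, and without intact blood library 3 the estimate was -1.67 (adjusted p = 0.00179).

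Genes for chemokine receptors, adhesion and recognition gave small counts in both directions, beside 6.18% of all features called higher and 3.87% called lower. Of 15 chemokine receptors 2 rose, Ccrl2 (2.36, SE 0.53, adjusted p = 0.012), which binds chemerin without signalling, and Cxcr1 (2.35, SE 0.51, adjusted p = 0.0102), and 2 fell, one of them Cx3cr1. Of 17 integrin subunits 3 rose and 1 fell on average but 0 did so in both tissues, and 7 had an unadjusted p under 0.05 by edgeR. In selectins and adhesion genes 2 of 17 rose in both tissues, one of them Cd44, the hyaluronan receptor (1.19, SE 0.27, adjusted p = 0.0126). Of 23 Toll-like receptor genes 1 rose and 1 fell in both tissues, close to the 4.24% and 2.61% of all features. They were Tlr2, the receptor for bacterial lipopeptides (1.84, SE 0.39, adjusted p = 0.00898), and Tlr11, a receptor for profilin (-2.27, SE 0.56, adjusted p = 0.0175). Clec4n, the lectin Dectin-2, rose in both tissues (1.79, SE 0.32, adjusted p = 0.0045) with 2 other lectins of 14 tested. In the MHC class II and costimulation list 2 of 16 rose in both tissues and 1 fell on average, and of those that rose Cd274 encodes the inhibitory ligand PD-L1 (1.70, SE 0.31, adjusted p = 0.00527). Without the apart libraries 1 rose and 2 fell in the MHC list, 0 rose and 1 fell among the integrins, and 2 rose and 2 fell among the lectins.

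Other lists held single members of interest, beside 4.24% of all features that rose and 2.61% that fell in both tissues. Of 11 CC chemokine ligands, which attract monocytes and lymphocytes, 2 rose in both tissues, Ccl7 (3.92, SE 0.64, adjusted p = 0.00347) and Ccl12 (4.06, SE 1.01, adjusted p = 0.0183), both ligands of CCR2. Ccl12 missed the threshold without resected spleen library 3 (3.69, adjusted p = 0.0688) and without intact blood library 2 (3.79, adjusted p = 0.0526). Among 21 cholesterol and lipid genes 3 rose in both tissues, with Insig1, which holds back cholesterol synthesis, at 1.27 (SE 0.22, adjusted p = 0.00395) and Abcg1, which exports cholesterol, at 1.07 (SE 0.22, adjusted p = 0.00784). In the BCL2 family 2 of 16 rose and 1 fell in both tissues, the last being Bmf, which promotes cell death (-1.01, SE 0.19, adjusted p = 0.00581).

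The size of the shared changes was compared between the tissues with the interaction of state and tissue. Over all features 57 (0.283%) were called for a difference, and among the 1378 that moved the same way in both tissues 13 had an adjusted p under 0.05. A p that misses the threshold does not show equal effects, and the standard error of the difference was 0.66 for Cxcl1 and 0.20 for Id2 on the log2 scale. For the genes whose effects lay closest, such as Wfdc17 (0.04, SE 0.57, adjusted p = 0.992), Gla (0.03, SE 0.52, adjusted p = 0.997) and Cx3cr1 (0.02, SE 0.70, adjusted p = 1), the difference was below 1 SE.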

How the data were processed

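RNA of CD115+ cells was sequenced in 12 libraries, 3 for each of 4 groups formed by tissue and state as the titles give them, with 5 mice pooled per library. The deposited files hold estimated counts per transcript or gene, which the authors made from mouse reads with STAR and GRCm39 per the submitters' processing notes. The counting tool is not given in the sources used here. The labels name a DNBSEQ strand-specific mRNA library, the methods an Illumina instrument. Each file listed 67088 entries, of which 2558 named no transcript (1.75% to 4.33% of the counts) and were left out. Of 40274 accessions, 25340 were matched to symbols through RefSeq names of GRCm38.p6, and counts were summed per symbol and rounded, which gave 52553 features. Accessions of a changed annotation could not be matched, so that a symbol can lack part of its reads.

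The main fit was edgeR's robust quasi-likelihood test (edgeR 4.0.16, R 4.3.3) of state with tissue as covariate, with TMM factors (0.661 to 1.26) and filterByExpr by the 4 groups. It left 20135 features, 15680 with a symbol. p-values were Benjamini-Hochberg adjusted over all of them and a call took an adjusted p under 0.05 with a log2 fold change above 1 or below -1. Values for 1 tissue and differences between tissues came from a fit of the 4 groups. CPM floors were set at 3 counts per library (0.0626 to 0.102 CPM) and cover counting error only. The median log2 fold change of all features was -0.0164. Alternatives were DESeq2 1.42.0, limma 3.58.1, other scaling and filters, other limits, a replicate block and leaving out libraries. The script for the fit was tested on simulated counts. Replicates differed by more than sampling noise (chi-square of at least 19.7 per degree of freedom). The p-values measure the spread between these pools, with each library taken as independent. Nothing in the labels says whether blood and spleen libraries share mice. If they do, the libraries of a state are not independent and the p-values of the main fit can be too small. In the main fit a resection effect that differs between the tissues counts as spread too, and raises the SE and p of the average.

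Genes were named as the 10 rising and 10 falling in both tissues with the smallest p and the 5 of each with the largest fold, at a mean of at least 5 CPM in the higher state of each tissue and with a proper symbol, and as up to 4 members of each list described with the smallest p, beside Csf1r, Cxcl1, Cxcl2, Il1a and marker genes. Further list members, and Slpi, Lcn2, Saa3, Cxcl10, Wfdc17 and Zfp703, Zfp9 and Zfp991, were chosen after their values were seen. The members and gene lists were chosen with earlier results of these data known. Results on a few genes are not reported here.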

Additional observations from a re-analysis of the deposited data

Results flagged for a closer look

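Among the features that moved the same way in both tissues 13 passed a test of the difference between the tissues. In 5 of them, those among the genes named here, the size of the rise differed between the tissues by the interaction of state and tissue (edgeR's quasi-likelihood test, adjusted over all features). The rise was larger in blood in each. The difference, blood minus spleen on the log2 scale, was 3.30 (SE 0.33, adjusted p = 0.0136) for Slpi, the inhibitor of neutrophil elastase. It was 6.80 (SE 0.90, adjusted p = 0.0317) for Spp1, which encodes osteopontin. For Tgm2, a transglutaminase that helps to take up dead cells, it was 2.97 (SE 0.42, adjusted p = 0.0334), for Mertk, a receptor for such cells, 2.63 (SE 0.37, adjusted p = 0.0334), and for C1ra, a protease of complement C1, 2.64 (SE 0.35, adjusted p = 0.0317).

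Spp1 was read at 0.991, 1.13 and 4.52 CPM in intact blood, 815, 1203 and 1042 CPM in PH blood, 2.99, 2.67 and 1.94 CPM in intact spleen and 5.98, 6.88 and 18.3 CPM in PH spleen. The states lay far apart in blood and much closer in spleen, without overlap in either. The average effect of Spp1 was 5.44 (SE 1.55, adjusted p = 0.0317) and its call was lost without intact spleen library 3, resected blood library 1 or 2 or any 1 intact blood library, at adjusted p-values of 0.0512 to 0.0763. Mertk stood at 9.17, 5.4 and 8.15 CPM in intact blood, 71.6, 81.6 and 94.7 CPM in PH blood, 42.8, 66.4 and 71.7 CPM in intact spleen and 116, 121 and 80.5 CPM in PH spleen, with both spleen groups above intact blood. With 57 features called for a difference of 20135 tested, these 5 were among the few that passed, and that count moved with the libraries used. With a replicate block, whose numbers are not known to pair the samples, 1 feature passed, and the adjusted p-values of the 5 were 0.0505 to 0.112. The cause was not tested, and blood and spleen also differ in that the spleen alone was digested with enzymes.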

How the results depend on the processing

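Genes called higher and lower after resection numbered 1245 and 780, and those that moved the same way in both tissues 853 and 525. With no limit on the fold change the counts were 2071 and 1954 called and 1370 and 1335 in both tissues. With a log2 limit of 2 they were 551 and 171, and 383 and 109. By the larger p of the tissues with the fold limit in each, 6 rose and 5 fell, and by separation alone 1515 and 1608. DESeq2 called 1679 and 1076, and limma voom with the replicate number within each state as a random effect 1503 and 821. Leaving out 1 library at a time gave 869 to 1364 called higher, 520 to 946 lower, 727 to 990 rising in both tissues and 421 to 794 falling, the 794 without intact blood library 3. Without resected blood library 3 the called counts were 976 and 541. Without both libraries that stand apart, an alternative chosen after seeing the data, 987 and 812 were called.

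The 57 features called for a difference between tissues became 22 with no filter on low counts, 99 with at least 10 counts in every library, and 355 without both apart libraries. They numbered 5 to 93 with 1 library left out, the 93 without resected spleen library 3. With a replicate block 978 and 706 were called, 757 and 486 moved the same way in both tissues, and 1 differed between them. Same-numbered libraries correlated by 0 to 0.11 in their deviations from group means. Resected blood and spleen libraries gave 0, 0.11 and 0.11 for the same number and -0.13 to 0.03 for different numbers. Low correlations across tissues cannot show whether the libraries share mice. No direction reversed in any of 254 named genes. Of 227 past the threshold, 63 lost it under at least 1 alternative, and of 30 with the smallest p or largest fold 3 did: Lig4, Ereg and Nos2, the last 2 only with that limma voom fit. These counts take in only alternatives that gave the gene an adjusted p. A gene removed by a filter, or left without an adjusted p by DESeq2, as Stfa3 and Lig4 were, was not counted as lost there. The causes were not tested. With 3 pooled libraries a group and a common dispersion of 0.364, small changes of variable genes cannot be seen, and genes at a few counts carry wide errors.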

Other observations

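Some transcript accessions without a symbol were switched fully. Of 4455 tested, 1 had 0 counts in all 6 intact libraries and over 0.5 CPM in all 6 resected ones, and 3 showed the reverse, against 0 and 0 of 15680 features with a symbol. NM_001403075 was at 32.4, 30.7 and 23.6 CPM in blood and 18.4, 24.9 and 11.9 CPM in spleen after resection, at least 289-fold above the floor in each tissue, taken as 3 counts per library. NM_001405081 was at 11, 14 and 5.42 CPM in intact blood and 12.5, 21.6 and 17.7 CPM in intact spleen and was at least 99.5-fold lower in blood and 234-fold lower in spleen after resection. The sources used here do not name their genes, and an accession at 0 in every library of a state can also come from how reads were assigned between transcripts of 1 gene, which was not tested. Of the unmatched accessions 75 rose and 63 fell in both tissues.

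Markers of resident macrophages were higher in part, beside 6.18% of all features called higher on average and 4.24% that rose in both tissues. Of 8 red pulp macrophage markers 3 rose in both tissues, among them Spic (1.61, SE 0.39, adjusted p = 0.0159), the transcription factor of these cells, and 5 rose on average without the 2 apart libraries. Of 6 Kupffer cell markers tested 3 rose on average and 2 in both tissues, with 4 on average without those libraries. Clec4f, also listed, was not tested. Their summed level was 43.2 to 390 CPM in intact blood, 513 to 795 CPM in PH blood, 49.8 to 78.3 CPM in intact spleen and 361 to 417 CPM in PH spleen. Of 11 markers of large peritoneal macrophages 7 rose on average and 2 in both tissues, with 3 on average without those libraries. Their summed level was 3820 to 7360 CPM in intact blood and 22800 to 32900 CPM in PH blood. In spleen it was 358 to 513 CPM in intact libraries and 407, 382 and 2680 CPM in PH libraries 1 to 3. The part that RNA of peritoneal macrophages had in the rises of other genes, Saa3 among them, was not tested. Gata6, the transcription factor that defines peritoneal macrophages, was at 5.86, 2.85 and 3.78 CPM in intact blood, 21.6, 23.7 and 17.7 CPM in PH blood, 0.0210, 0.0835 and 0 CPM in intact spleen and 0.163, 0.0655 and 0.147 CPM in PH spleen. It was measured in every blood library and near 0 in spleen, where the states overlapped (2.13, SE 0.46, adjusted p = 0.0101). Of 7 plasma cell markers 3 rose on average, of them Jchain (1.24, SE 0.23, adjusted p = 0.00558) and Derl3 (1.05, SE 0.18, adjusted p = 0.00375) in both tissues. Of 10 platelet genes 2 rose on average and 0 in both tissues, and of 10 eosinophil and basophil genes 0 were called by edgeR, with 4 at an unadjusted p under 0.05. Of 9 hepatocyte markers 1 passed the filter on low counts, and it was not called.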
